A study of Rattus norvegicus with 12 samples.

Results

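The calcium/calmodulin-dependent protein kinases and the phosphatase calcineurin were followed in the cortex of young and aged rats through 10 genes. Camk2a, Camk2b, Camk2d and Camk2g encode the subunits of CaMKII, Camk4, Camk1g and Camkk2 encode other CaM kinases, and Ppp3ca, Ppp3cb and Ppp3r1 encode subunits of calcineurin. Every probe set that the platform annotation assigned to 1 of these symbols was taken, without regard to its signal, which gave 26 of the 31099 probe sets on the array. The rats were male Fischer 344, an inbred strain, in 2 groups of 6 labelled young (3 to 5 months old) and aged (21 to 23 months old), with 1 Affymetrix RAE230 2.0 array for each animal. The labels name no transgene and no drug treatment. The methods state that all rats had been implanted with telemetry devices under isoflurane and trained in a water maze before the tissue was taken. The sample titles name parietal cortex, whereas the tissue field names frontal cortex, so the lobe differs between the labels. The age ranges are those of the labels, and a given animal's age within its range was not used here.

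These enzymes read the same signal and act on it in opposite directions. Calcium that enters a neuron through glutamate receptors or voltage-gated channels binds calmodulin, and calcium-loaded calmodulin switches on both the kinases and calcineurin. CaMKII is an abundant protein of excitatory synapses whose autophosphorylation keeps it active after the calcium signal has ended, and it is needed for long-term potentiation and spatial learning. Calcineurin binds calmodulin with higher affinity, removes phosphate from synaptic proteins during long-term depression, and sends NFAT transcription factors to the nucleus. CaMKK2 phosphorylates CaMKI, CaMKIV and AMP-activated kinase, and CaMKIV phosphorylates CREB in the nucleus.

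None of the 26 probe sets differed between young and aged rats after adjustment over the whole array, and the differences were small for most of them. All 26 had a signal above the cutoff of 4.3 on the log2 scale on all 12 arrays, so none was lost to the filter on low values. By limma with Benjamini-Hochberg adjustment over 28193 probe sets, 0 of 26 passed an adjusted p of 0.05, where 0.0248% of all probe sets did, and the smallest adjusted p among the members was 0.597. At an unadjusted p up to 0.05, 1 of 26 passed (Ppp3cb 1387261_at), against 7.80% of all probe sets. The signals of young and aged rats overlapped for all 26, whereas 0.621% of all probe sets had groups that did not overlap. The standard error of the difference ranged from 0.062 to 0.488 on the log2 scale among the members, with a median of 0.133, against a median of 0.142 over all probe sets tested. The 95% confidence interval of the difference lay within ±0.25 on the log2 scale for 7 probe sets, within ±0.5 for 17 and within ±1 for 24 and reached further for the rest.

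The direction was lower in aged rats for most of the members. The mean log2 signal was lower in aged rats for 20 of the 26 and higher for 6, against 42.3% lower among all probe sets, and the median difference of the members was -0.07 on the log2 scale against 0.03 over all probe sets tested. With all probe sets tested split by mean signal into 4 classes of equal size, 16 of the 26 members fell in the brightest class, where 57.9% of all probe sets were lower in aged rats. In that class 15 of the 16 members were lower, with a median difference of -0.08 against -0.02 for the whole class. The count moved with the scaling between arrays, from 20 to 23 of 26 after quantile normalization, where 51.3% of all probe sets were lower, and to 25 of 26 after centring each array on its median, where 59.7% were lower. Probe sets of 1 gene read overlapping RNA in the same rats and are not independent of each other. In tissue samples of this kind fewer neurons and less RNA per neuron cannot be told apart.

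**Figure D1:**
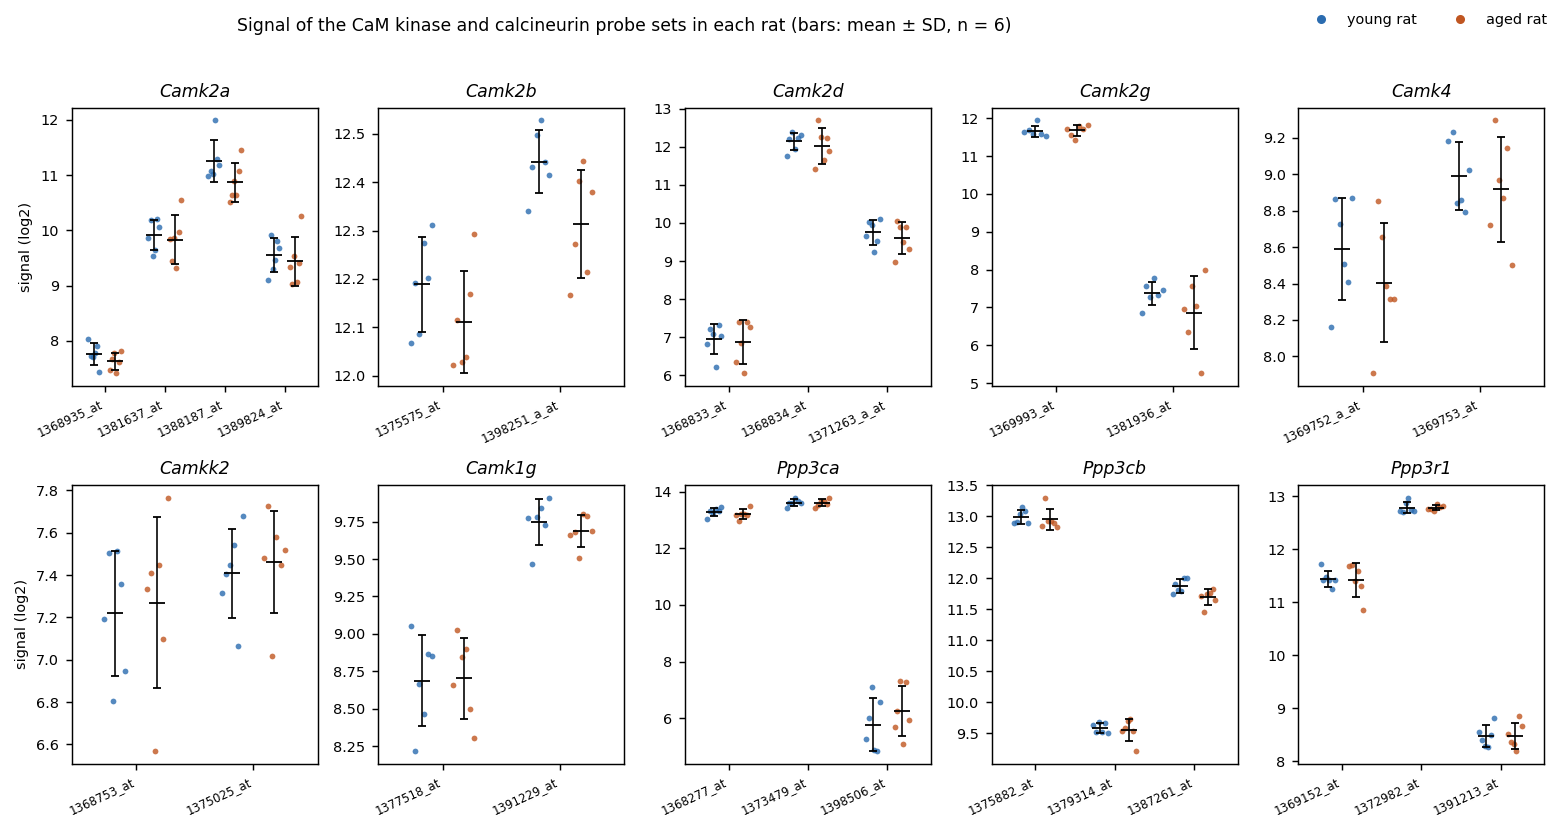
Signal (log2) of each of the 26 probe sets in each of the 6 young (blue) and 6 aged (orange) rats, 1 panel for each gene, each with its own vertical axis. Black bars give the mean ± SD of a group, and the young and aged rats overlap for all 26 probe sets.

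**Figure D2:**
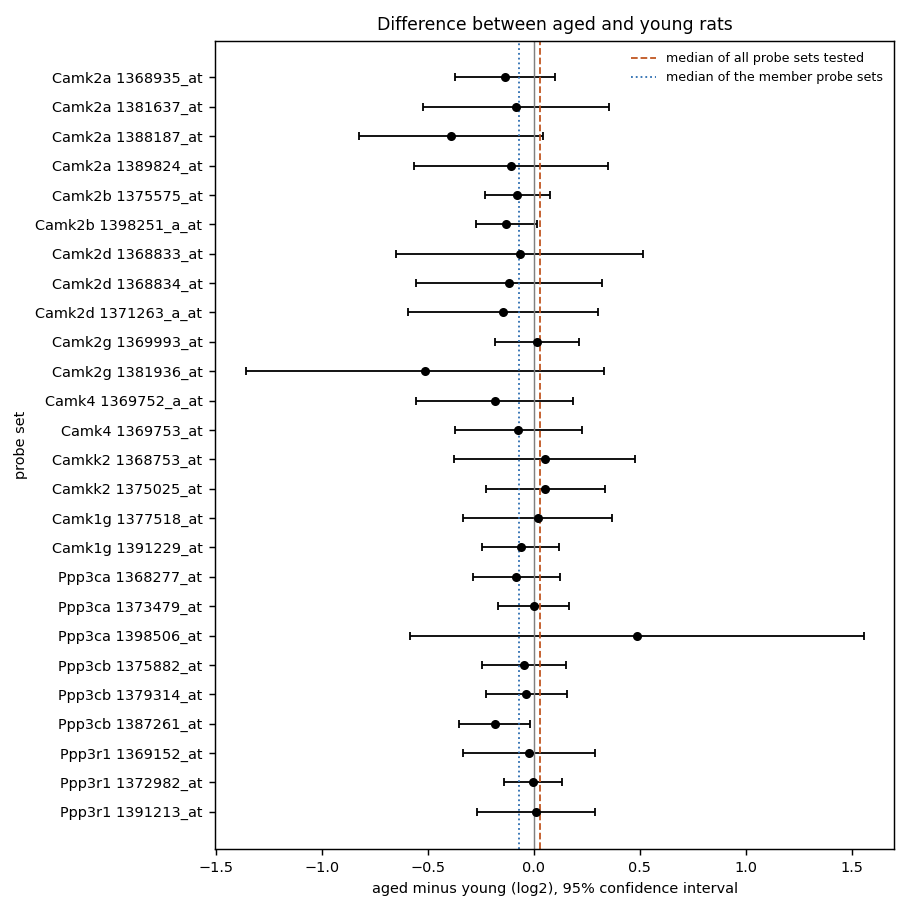
Difference between aged and young rats (log2) for each probe set, with its 95% confidence interval from limma. The dashed line is the median of all probe sets tested (0.03), the dotted line is the median of the 26 (-0.07), and the interval of Ppp3cb 1387261_at is the only 1 that does not reach 0.

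The arrays of 2 aged rats stood apart from the others. Aged rats 2 and 6 had the lowest mean correlation with the other arrays, 0.945 and 0.950, against 0.952 to 0.957 for the other 10, and the lowest array weights, 0.517 and 0.485. In aged rat 6 the median deviation from the young mean was 0.14 over all probe sets tested and 0.08 over the 26 members, whereas the members' median deviation in the other 5 aged rats ran from -0.16 to -0.04. Without aged rats 2 and 6, the members' median difference was -0.10, 21 of 26 were lower, and again 0 passed the adjusted threshold. Over all probe sets tested the median was then 0.02, with 44.6% lower. Leaving out 1 rat at a time moved the members' median between -0.09 and -0.03. It was nearest 0 without aged rat 1, where 16 of 26 were lower, against 41.3% of all probe sets. After median centring it was -0.14, with -0.04 over all probe sets tested. The sample codes of the arrays fell in a lower series, with 3 young and 4 aged animals, and a higher series, with 3 young and 2 aged animals. The members' median difference was -0.07 in the lower series alone, where 18 of 26 were lower, and -0.04 in the higher series alone, where 17 were lower. Over all probe sets tested it was 0.02 in the lower series, where 46.2% were lower, and 0.07 in the higher, where 39.0% were lower. Of the members, 0 passed the adjusted threshold in either.

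The α subunit of CaMKII, which with the β subunit forms most of the holoenzyme in forebrain neurons, was read by 4 probe sets that were all lower on average in aged rats. For 1388187_at the signal was 2027 at the lowest, 2243 at the median and 4069 at the highest in young rats, and 1470, 1745 and 2791 in aged rats. In this probe set 4 of the 6 aged rats lay below every young rat, young rat 4 stood far above the other young rats, and aged rat 6 was above 5 of the 6 young rats. The difference was -0.39 on the log2 scale (SE 0.20, 95% interval -0.83 to 0.04, adjusted p = 0.677 by limma), a fold of 0.762. Without young rat 4 it was -0.25, without aged rats 2 and 6 it was -0.48, and within the lower and higher series of sample codes it was -0.36 and -0.23.

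The other 3 Camk2a probe sets differed by less. For 1381637_at the signals were 747.5, 995 and 1189 in young rats (lowest, median and highest) and 641, 930 and 1506 in aged rats, and the difference was -0.08 (SE 0.20, 95% interval -0.52 to 0.36). For 1389824_at they were 553, 764 and 964 in young rats and 526, 665 and 1220 in aged rats, a difference of -0.11 (SE 0.21, 95% interval -0.56 to 0.35). Aged rat 6 was the highest of the 12 rats in both, and 2 aged rats lay below every young rat in both. For 1368935_at, with 172, 216 and 261 in young and 170.1, 200.1 and 225 in aged rats, the difference was -0.14 (SE 0.11). In the higher series of sample codes alone these 3 were higher in aged rats, by 0.29, 0.18 and 0.01 in the same order, so their direction was not the same in both series.

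The β subunit, which docks the holoenzyme on filamentous actin, had the narrowest spread of the CaMKII subunits. The 1398251_a_at signals were 5187, 5545 and 5906 in young rats and 4599 (lowest), 5139 (median) and 5576 (highest) in aged rats, with a coefficient of variation of 4.53% and 7.73%. Of the 6 aged rats, 3 lay below every young rat. The difference was -0.13 (SE 0.07, 95% interval -0.27 to 0.01, adjusted p = 0.680 by limma), and it was -0.10 in the lower and -0.17 in the higher series of sample codes. The 1375575_at signals were 4290, 4696 and 5082 in young rats and 4159, 4321 and 5018 in aged rats, where again 3 aged rats were below every young rat. Its difference was -0.08 (SE 0.07, 95% interval -0.23 to 0.07). Both intervals leave out a rise of 0.1 and a fall of 0.3 on the log2 scale.

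The δ subunit is found in many tissues besides brain, and its 3 probe sets varied widely between rats of 1 age. For 1368834_at the signal ran from 3487 to 5341 in young rats (median 4746) and from 2719 to 6593 in aged rats (median 4303). Aged rat 2 held the highest value and aged rat 1 the lowest of all 12 rats, so the aged range enclosed the young 1. The difference was -0.12 (SE 0.20, 95% interval -0.56 to 0.32). For 1371263_a_at the signals were 609, 897 and 1104 in young and 502, 835 and 1058 in aged rats, a difference of -0.15 (SE 0.21). For 1368833_at they were 75.1, 133 and 160 in young and 66.3, 135 and 169 in aged rats, a difference of -0.07 (SE 0.27), which was 0.47 in the higher series of sample codes alone.

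The γ subunit, which carries calmodulin to the nucleus in neurons, was read by a bright and a dim probe set. For 1369993_at the signals were 2979, 3132 and 3929 in young and 2762, 3382 and 3625 in aged rats, a difference of 0.01 (SE 0.09, 95% interval -0.18 to 0.21). For 1381936_at they were 116, 167 and 217.5 in young rats, whereas the aged rats ran from 38.1 in aged rat 5 to 253 in aged rat 6 with a median of 128. Its coefficient of variation was 20.6% in young and 56.0% in aged rats. The difference of -0.51, the lowest of all 26, had an SE of 0.39 and a 95% interval from -1.36 to 0.33, and without aged rat 5 it was -0.19. In all, 10 of the 11 CaMKII probe sets had a lower mean in aged rats, with a median difference of -0.12, against 42.3% lower among all probe sets. In the brightest class by signal 57.9% of all probe sets were lower. Median centring moved every difference by the same amount, so that 59.7% of all probe sets were lower and 1369993_at was -0.06.

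CaMKIV, which is largely nuclear and activates CREB, was read by 2 probe sets. The 1369752_a_at signals were 286, 394 and 467 in young and 239.8, 327 and 463 in aged rats, a difference of -0.18 (SE 0.17, 95% interval -0.55 to 0.18). The 1369753_at signals were 444, 492 and 601 in young and 362, 484 and 629 in aged rats, a difference of -0.07 (SE 0.14). In both, the aged range reached below the young 1, and 1 aged rat lay below every young rat in the former and 2 in the latter.

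CaMKK2, the kinase that activates CaMKI and CaMKIV, was the gene whose 2 probe sets were both higher on average in aged rats, and both differences were under their standard error. For 1375025_at the signals were 134, 172 and 205 in young and 129.5, 181 and 211 in aged rats, a difference of 0.05 (SE 0.13, 95% interval -0.23 to 0.33). For 1368753_at they were 112, 155 and 183 in young and 94.95, 166 and 217.5 in aged rats, a difference of 0.05 (SE 0.19). Both turned to lower in aged rats after quantile normalization (-0.02 and -0.02), after median centring (-0.02 and -0.02) and without aged rats 2 and 6 (-0.03 and -0.11).

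Camk1g encodes CaMKIγ, a membrane-bound kinase that acts in dendrite growth. For 1391229_at the signals were 707, 878 and 962 in young and 729, 824 and 893 in aged rats, so the aged range lay inside the young 1, and the difference was -0.06 (SE 0.08, 95% interval -0.24 to 0.12). For 1377518_at they were 298, 434 and 531 in young and 315.5, 432 and 520.3 in aged rats, with the aged range again inside the young range. Its difference was 0.02 (SE 0.16), and after quantile normalization and median centring it was -0.01 and -0.05.

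Ppp3ca encodes calcineurin Aα, the main catalytic subunit of brain. For 1373479_at the signals were 11060, 12474 and 13988 in young and 10986, 12612 and 14052 in aged rats, and the difference was -0.001 (SE 0.08, 95% interval -0.17 to 0.17). For 1368277_at they were 8382, 10206 and 11128 in young and 8067, 9436 and 11539 in aged rats, where 5 of 6 aged rats lay below the young median. The difference was -0.08 (SE 0.09, 95% interval -0.29 to 0.12). The remaining probe set, 1398506_at, was dim and scattered. Its signals were 29.0, 51.3 and 137.5 in young and 34.3, 69.1 and 160 in aged rats, with a coefficient of variation of 66.2% and 60.1%, and its difference of 0.49 had an SE of 0.49.

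Ppp3cb encodes calcineurin Aβ, the other catalytic subunit of brain, and held the member with the smallest p. For 1387261_at the signals were 3438, 3710 and 4089 in young and 2817, 3392 and 3626 in aged rats. All 6 aged rats lay below the young median and 4 of them below every young rat, while aged rats 4 and 5 were above the lowest young rat. The difference was -0.18 (SE 0.08, 95% interval -0.35 to -0.02, unadjusted p = 0.0341 and adjusted p = 0.597 by limma), a fold of 0.881. It was -0.15 in the lower and -0.19 in the higher series of sample codes, and -0.12 without aged rats 2 and 6, where the unadjusted p no longer passed 0.05.

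The other Ppp3cb probe sets had smaller differences, with intervals that reach past -0.18, and the difference between probe sets was not tested. For 1375882_at the signals were 7566, 8069 and 9074 in young and 7229, 7656 and 10067 in aged rats, a difference of -0.05 (SE 0.09, 95% interval -0.24 to 0.15), with 0.05 in the lower and -0.19 in the higher series. Here aged rat 2 was the highest of all 12 rats and the other 5 aged rats lay between 7229 and 7805. For 1379314_at they were 722, 762 and 822 in young and 593, 756 and 843 in aged rats, a difference of -0.04 (SE 0.09), and aged rat 6 was the lowest of all 12 rats.

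Ppp3r1 encodes calcineurin B, the calcium-binding regulatory subunit that every calcineurin dimer needs. For 1372982_at the signals were 6670, 6794 and 8020 in young and 6739, 7034 and 7381 in aged rats, a difference of -0.01 with the smallest SE of the members (0.06, 95% interval -0.14 to 0.13). For 1369152_at they were 2424, 2743 and 3361 in young and 1846, 2892 and 3350.0 in aged rats, a difference of -0.02 (SE 0.14), and aged rat 6 was the lowest of all. For 1391213_at they were 307, 352 and 451 in young and 293, 346 and 463 in aged rats, a difference of 0.01 (SE 0.13). Over the 9 calcineurin probe sets 7 had a lower mean in aged rats, with a median difference of -0.02, and over the 6 of Camk4, Camkk2 and Camk1g 3 did, also with a median of -0.02. These counts and that of CaMKII were not tested against each other.

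**Figure D3:**
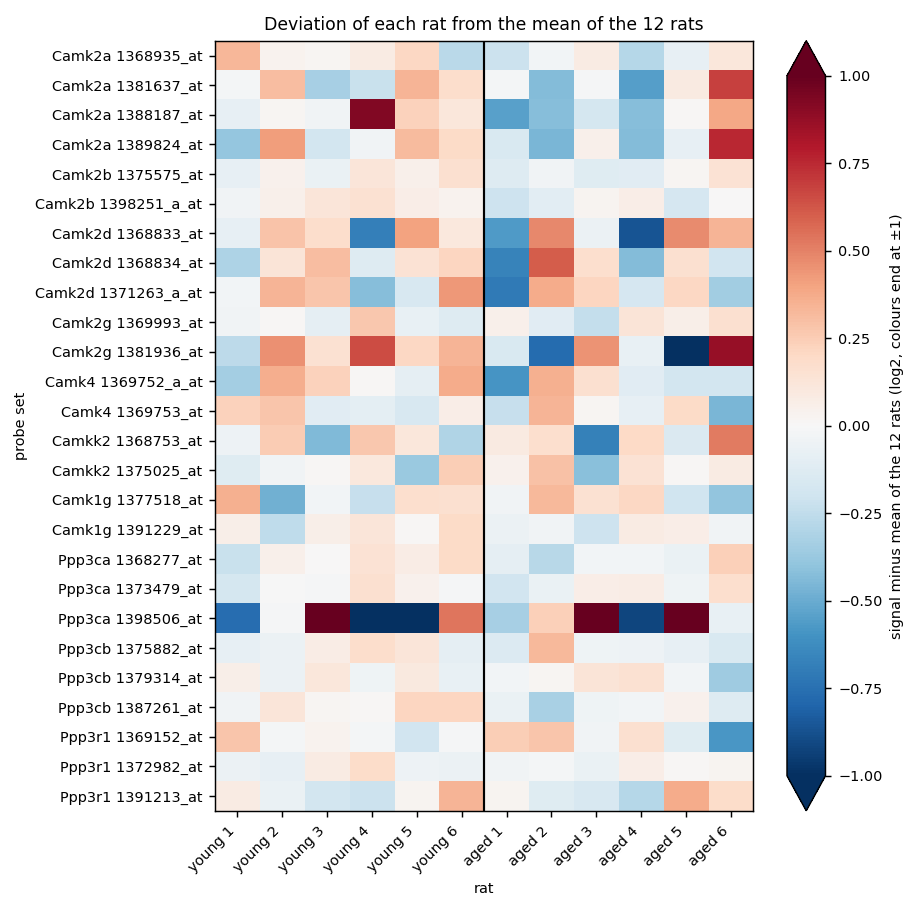
Deviation of each rat (columns) from the mean of the 12 rats for each probe set (rows), in log2 units, with colours that end at ±1 and a black line between the young and aged rats. Aged rat 6 is the highest of the 12 rats in 6 of the 26 rows and the lowest in 4, and aged rat 1 is the lowest in 7.

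Whether probe sets of 1 gene moved together from rat to rat was asked over the 23 pairs of probe sets that share a gene. Pearson's r over the 12 rats ranged from -0.40 to 0.91 with a median of 0.34, and 17 of the 23 were positive. After Benjamini-Hochberg adjustment over the 23 pairs, 4 passed an adjusted permutation p of 0.05. Since the rats share age groups and array scaling, r was also taken on deviations from the age group means and within the lower series of sample codes. The higher series holds 5 rats, under the 6 taken here as the fewest for a correlation. Two-sided permutation p-values with 100000 resamples are given throughout.

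The strongest pair was Camk2a 1381637_at with 1389824_at, with r = 0.91 (permutation p = 5e-05, adjusted p = 0.00115) and Spearman's rho = 0.90 (permutation p = 0.00018, adjusted p = 0.00414). The r was 0.82 without the 2 rats farthest from the median of 1381637_at, 0.90 on deviations from the group means, 0.82 in the lower series and 0.81 without aged rats 2 and 6. In every pair the 2 farthest rats were picked by the probe set named first, so rats that stood apart in the other alone were kept. The Camk2a probe set with the largest difference by age, 1388187_at, had r = 0.39 with 1381637_at (permutation p = 0.21), 0.52 with 1389824_at (permutation p = 0.08) and 0.42 with 1368935_at (permutation p = 0.18). Without young rat 4 and aged rat 1, the farthest from the median of 1388187_at, its r with 1389824_at was 0.86.

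The Camk2d probe sets 1368834_at and 1371263_a_at had r = 0.82 (permutation p = 0.00092, adjusted p = 0.0106), with rho = 0.81 (permutation p = 0.0021, adjusted p = 0.0241). The r was 0.72 without the 2 farthest rats, 0.81 on deviations from the group means and 0.91 in the lower series. Camk2d 1368833_at and 1368834_at had r = 0.73 (permutation p = 0.00692, adjusted p = 0.0398), with rho = 0.62 (permutation p = 0.0362, adjusted p = 0.143). That r was 0.75 without the 2 farthest rats, 0.73 on deviations and 0.87 in the lower series. The remaining Camk2d pair had r = 0.59 (permutation p = 0.0429, adjusted p = 0.197), which did not pass.

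The bright Ppp3ca probe sets 1368277_at and 1373479_at had r = 0.73 (permutation p = 0.00676, adjusted p = 0.0398), with rho = 0.74 (permutation p = 0.00761, adjusted p = 0.0567). The r was 0.69 without the 2 farthest rats, 0.76 on deviations and 0.59 in the lower series. The dim 1398506_at had r = -0.08 and -0.11 with them, neither of which passed (permutation p = 0.794 and 0.739). For Ppp3cb the 3 pairs ran from -0.30 to 0.32, and for Ppp3r1 from -0.40 to -0.11, and none of these passed.

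Pairs of different genes were looked at after the data had been seen, over all 325 pairs of the 26 probe sets. The 302 pairs of different genes had a median r of 0.03. Of all 325, 2 passed an adjusted permutation p of 0.05, namely the Camk2a pair above (adjusted p = 0.0162) and Camk2a 1389824_at with Ppp3r1 1369152_at. This latter pair had r = -0.87 (permutation p = 0.00022, adjusted p = 0.0357) and rho = -0.80 (permutation p = 0.00264, adjusted p = 0.107). Its r was -0.83 without the 2 farthest rats, -0.89 on deviations, -0.76 in the lower series and -0.71 without aged rats 2 and 6. Rats with a high Camk2a signal at this probe set, aged rat 6 foremost, had a low signal at Ppp3r1 1369152_at. In aged rat 6 that probe set lay -0.59 from the mean of all rats (log2). The other Ppp3r1 probe sets were not low there, with 0.03 at 1372982_at and 0.19 at 1391213_at. Next to these, Camk2d 1368834_at and Camk4 1369752_a_at had r = 0.82 (permutation p = 0.00105, adjusted p = 0.0789), which did not pass.

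**Figure D4:**
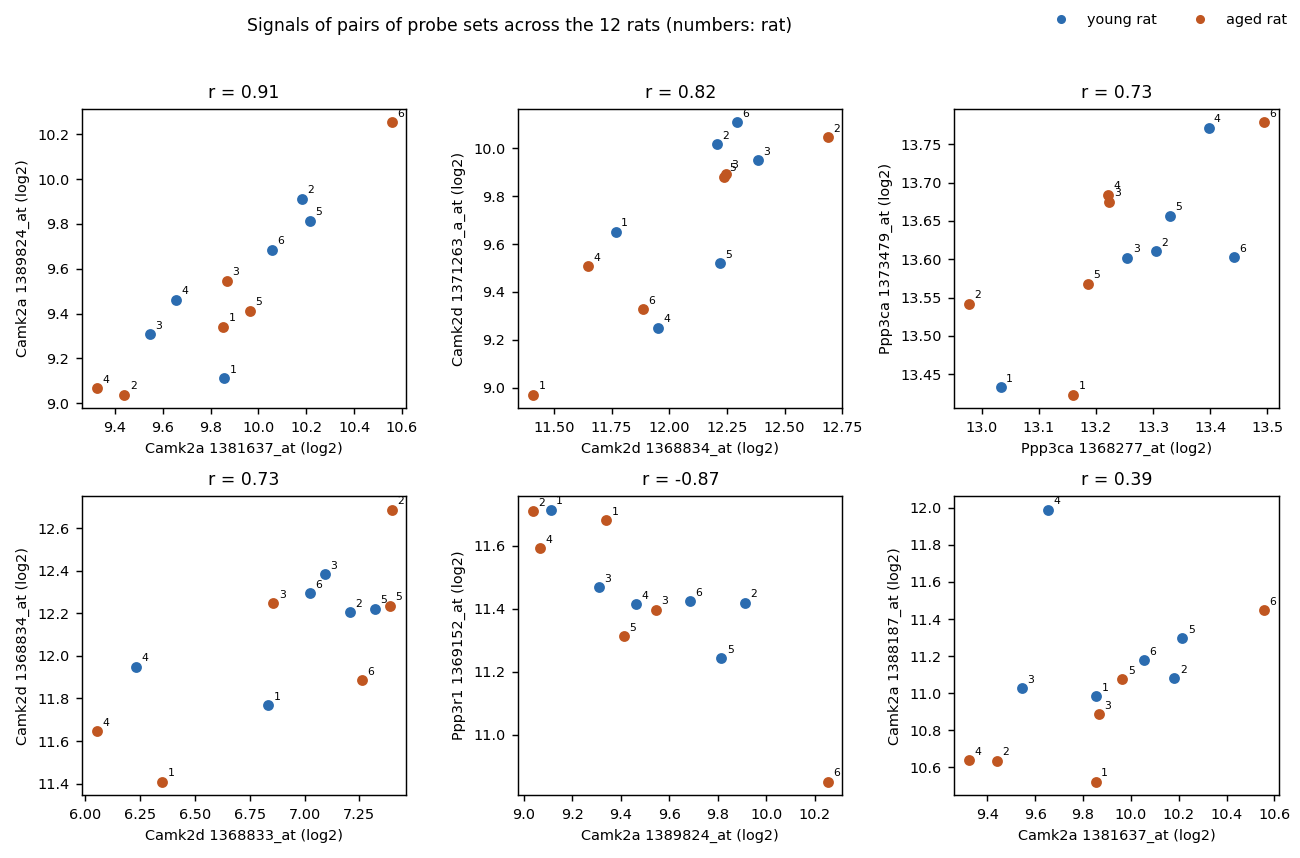
Log2 signals of 6 pairs of probe sets across the 12 rats, young in blue and aged in orange, each point numbered by its rat. The first 4 panels are the same-gene pairs that passed (r = 0.91, 0.82, 0.73 and 0.73), followed by Camk2a against Ppp3r1 (r = -0.87) and by the Camk2a pair in which young rat 4 stands apart (r = 0.39).

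The rest of the pathway was described with a list of 51 genes around these enzymes. Of these, 45 were analysed here, with 79 probe sets tested, of which 0 passed the adjusted threshold. With an unadjusted p of 0.05 or less, 4 had a higher and 4 a lower mean in aged rats, 10.1% of the 79 against 7.80% of all probe sets. The mean was higher for 34 and lower for 45, with a median difference of -0.02. The values below are from limma, and none passed adjustment.

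Among calmodulin and the proteins that bind it at rest, 4 probe sets were tested and 0 passed at the unadjusted level. Nrgn, which encodes neurogranin, differed by -0.09 (SE 0.07) and Calm2, a calmodulin gene, by 0.03 (SE 0.06). Among the other CaM-dependent kinases and inhibitors 5 of 13 were higher and 8 lower. Camkk1, the paralog of Camkk2, had signals of 1836, 1929 and 2114 in young and 1909, 2182 and 2237 in aged rats, a difference of 0.14 (SE 0.06, unadjusted p = 0.0387, adjusted p = 0.607). Camk2n1, an endogenous inhibitor of CaMKII, had 2889, 3686 and 4196 in young and 1971, 2965 and 3675 in aged rats at 1370853_at, a difference of -0.32 (SE 0.15, unadjusted p = 0.0487, adjusted p = 0.637). Its other probe set, 1389876_at, differed by -0.0004 (SE 0.16).

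Among the other subunits and the regulators of calcineurin together, 5 of 8 probe sets were higher and 3 lower. Akap5, the anchor that holds calcineurin at the postsynaptic membrane, differed by -0.22 (SE 0.17), and Rcan3, of the family of calcineurin-binding regulators, by 0.26 (SE 0.21). Among the other phosphatases and the inhibitors of protein phosphatase 1, 4 of 9 were higher. Ppp1r1a, the inhibitor of protein phosphatase 1 that calcineurin inactivates, differed by -0.23 (SE 0.11) at 1386968_at and -0.26 (SE 0.14) at 1383191_at. Ppm1f, a phosphatase that acts on CaMKII, differed by 0.37 (SE 0.25) at 1396266_at, a dim probe set with signals of 18.7 to 42.1 in young and 23.9 to 58.7 in aged rats. The brighter Ppm1f probe sets 1370552_at and 1398332_at differed by -0.03 (SE 0.20) and 0.10 (SE 0.08).

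The transcription factors downstream held the smallest p-values of the list, where 3 of 33 probe sets had a higher and 3 a lower mean with an unadjusted p of 0.05 or less. Together they were 18.2% of the 33, against 7.80% of all probe sets. The 3 lower were all of Crem, and the 3 higher were of Atf1, Nfatc1 and Nfat5. Crem, a CREB family member that CaM kinases can phosphorylate, had signals of 750, 1002 and 1107 in young and 614, 780.1 and 837 in aged rats at 1378925_at. The difference was -0.40 (SE 0.12, 95% interval -0.65 to -0.14, unadjusted p = 0.00521, adjusted p = 0.413). It was -0.42 in the lower and -0.29 in the higher series of sample codes. Atf1, of the same family, had 895, 959 and 1024 in young and 1020.3, 1092 and 1229 in aged rats, a difference of 0.20 (SE 0.07, unadjusted p = 0.00972, adjusted p = 0.464), with the highest young rat just above the lowest aged rat.

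The postsynaptic partners of CaMKII were lower at 7 of 8 probe sets, none at the unadjusted level, with a median difference of -0.13. Grin2b, the glutamate receptor subunit to which CaMKII binds, differed by -0.16 (SE 0.13) at 1369745_at, and Dlg4, the scaffold PSD-95, by -0.20 (SE 0.13) at 1387210_at. AMP-activated kinase, which CaMKK2 phosphorylates, was higher at 2 of 4 probe sets, and Prkaa1 and Prkaa2 differed by 0.16 (SE 0.09) at 1375970_at and -0.03 (SE 0.13) at 1369654_at.

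**Figure D5:**
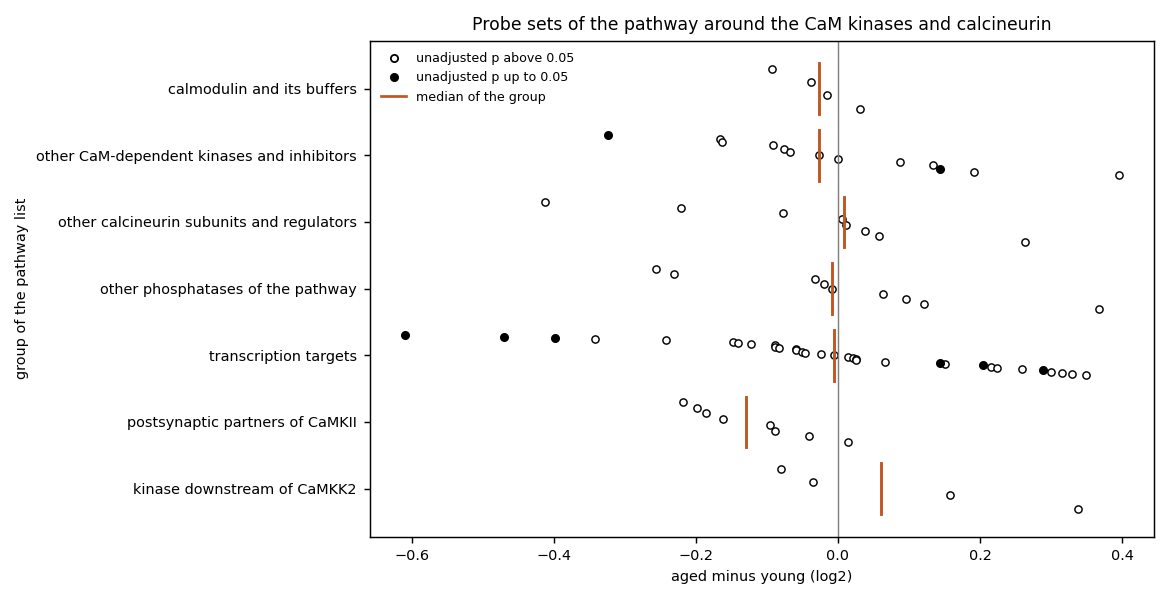
Difference between aged and young rats (log2) for the 79 probe sets of the pathway list, 1 point for each, in 7 groups, with the group median as an orange line. Filled points have an unadjusted p up to 0.05 (4 on each side of 0), and none passed adjustment.

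Markers of cell types and regions were read to describe the tissue. Markers of cortical excitatory neurons (Slc17a7, Neurod6, Tbr1), interneurons and all neurons were above the cutoff on all 12 arrays. So were Drd1 and Drd2 of striatum and Ttr and Folr1 of choroid plexus. Since 28193 of the 31099 probe sets passed the cutoff on at least 3 arrays, passing it does not tell which region was taken. The excitatory neuron markers, the cells in which Camk2a is mainly expressed, had a median difference of -0.04 over 4 probe sets (1 higher, 3 lower), with a summed signal of 7485 to 8679 in young and 6293 to 9200 in aged rats. The pan-neuronal markers had a median difference of -0.07 over 6 (1 higher, 5 lower), with a summed signal of 36766 to 46825 in young and 36525 to 42450 in aged rats, and the interneuron markers -0.10 over 4 (all lower).

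Markers of several other cells had higher means in aged rats. Oligodendrocyte markers were higher in aged rats at 8 of 8 probe sets (median difference 0.26, summed signal 39204 to 55600 in young and 42021 to 64277 in aged rats), endothelial markers at 5 of 5 (0.26), microglial markers at 4 of 5 (0.15) and red blood cell markers at 2 of 2 (0.37), with 0 at the adjusted threshold in any list. Astrocyte markers had a median of 0.03 over 8, as all probe sets tested did. Among markers of neighbouring regions, those of thalamus were higher at 6 of 6 (0.29), of striatum at 2 of 5 (-0.12), of hippocampus at 6 of 9 (0.03) and of choroid plexus at 2 of 3 (0.06). The thalamus list rests mostly on a single gene, since all its probe sets but Lhx9 1385034_at (0.23, SE 0.33) were of Tcf7l2. With an unadjusted p of 0.05 or less, 3 of the 6 thalamus probe sets (all of Tcf7l2) and 2 of the 5 endothelium probe sets (Cldn5 and Flt1) were higher. Over the whole array 7.80% of probe sets had such a p in either direction. Of the neuronal markers Stmn2 1370042_at was lower (-0.26, SE 0.08, unadjusted p = 0.00758, adjusted p = 0.445 by limma), with all 6 aged rats below the young median. Dim probe sets were more often higher in aged rats over the whole array. In the dimmest of the 4 classes by signal, which held 5 of the 6 thalamus probe sets, 34.2% were lower (median difference 0.18). In the next, which held 4 of the 5 endothelium probe sets, 33.4% were (0.08). At an unadjusted p up to 0.05, 8.71% and 9.59% of these classes passed in either direction. The brightest class held all 8 oligodendrocyte, all 6 pan-neuronal, 3 of 4 excitatory neuron and 3 of 4 interneuron probe sets. There 57.9% of all probe sets were lower (-0.02). The part of these shifts in the members' differences was not tested.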

How the data were processed

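Total RNA of 12 rats was hybridised to 12 arrays. The deposited table holds 1 linear intensity for each of 31099 probe sets on each array, and its mean trimmed by 2% at each end was 500.1 on every array. The authors' methods state that gcRMA intensities were deposited, while the notes the submitters gave on processing list R 2.7.1, GCRMA and MAS5. Since gcRMA gives log2 values and these are linear with a fixed trimmed mean, the background correction behind them could not be settled, and differences of dim probe sets depend on it. Probe sets were named from the platform annotation, with 20832 having 1 symbol, 436 several and 9831 none.

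Log2 of the deposited intensity was fitted with limma 3.58.1 in R 4.3.3 (lmFit, eBayes, 6 young against 6 aged rats, no covariate, two-sided). Probe sets above 4.3 (a signal of 19.7) on at least 3 arrays were tested, and p-values were adjusted by Benjamini-Hochberg over all 28193. The authors' methods chose this cutoff for gcRMA intensities. It was applied here unchanged to log2 of the deposited values, so passing it is weak evidence that a gene is expressed. Each array came from a separate animal by the labels. The number of arrays limits the precision. The fit and the correlations were tested on simulated data. The members and the lists were chosen with earlier results of these data known. From the pathway list, genes were named if they passed adjustment, otherwise the 2 of lowest p in each of its 7 groups. Levels of different probe sets were not compared with each other, and probe sets whose names end in _a_at match several transcripts of 1 gene. Alternatives covered the scaling, an offset of 16, the filter, 1 probe set for each gene, variance model, array weights, the methods' t-test, a replicate block, the series of sample codes and left-out rats. Water maze and sleep measures of single rats were not used here.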

Additional observations from a re-analysis of the deposited data

Results flagged for a closer look

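A rat that stood apart from the other 5 of its age group by Dixon's criterion (the gap to the nearest rat over the group's range, given here as a ratio, above the 95% critical value for 6) was found in 7 of 80 groups examined, where chance gives about 1 in 20. Among the members, young rat 4 was high at Camk2a 1388187_at, with 4069 against 2027 to 2514 in the other young rats (ratio 0.691), and at Camk2g 1369993_at, with 3929 against 2979 to 3274 (ratio 0.658). Aged rat 2 was high at Ppp3cb 1375882_at, with 10067 against 7229 to 7805 in the other aged rats (ratio 0.768). Aged rat 6 was low at Ppp3cb 1379314_at, with 593 against 743 to 843 (ratio 0.639). In the pathway list, young rat 4 was high at Grin2b 1369745_at, with 202 against 126 to 146 (ratio 0.687). Aged rat 3 was low at Camkk1 1368156_at, with 1909 against 2150 to 2237 (ratio 0.748), and at Rcan3 1395848_at, with 54.7 against 109 to 121.0 (ratio 0.867).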

How the results depend on the processing

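No member passed the adjusted threshold under any of the 26 alternatives, and 9 of the 26 members kept their direction in each alternative that gave them a value (6 of these 9 have none with 1 probe set for each gene). The members at an unadjusted p up to 0.05 numbered 1 as reported, 0 after quantile normalization, with 1 probe set for each gene, with the replicate block and in the higher code series alone, 2 with array weights and with the methods' t-test, 3 with trended and robust variances, 4 after median centring, and 0 to 2 without any 1 rat (0 without young rat 2, 5 or 6 or aged rat 2, and 2 without aged rat 4). In the lower code series, without aged rat 6 and without aged rats 2 and 6 the count was again 1, but the probe set was Camk2a 1388187_at. Over all 28193 probe sets the same count was 2198 as reported, 1909 after quantile normalization and 2302 after median centring. It was 2376 with array weights, 2267 with the methods' t-test, 2244 with trended and robust variances and 2698 with the replicate block. In the lower and higher series alone it was 1312 and 1823, and without any 1 rat 1946 to 2606. With 1 probe set for each gene it was 1207 of 13253. All probe sets at the adjusted threshold numbered 7 as reported, 4 after quantile normalization, 3 after median centring, 2 with trended and robust variances, 2 with the replicate block, 2 without aged rats 2 and 6, 0 in either series alone, and 0 to 10 without any 1 rat (0 without young rat 1 or aged rat 1, 3 or 6, 1 after dropping young rat 4, and 4 after dropping either young rat 5 or aged rat 2). Of those at an unadjusted p up to 0.05, 72.7% were higher in aged rats as reported, 52.2% after quantile normalization and 38.1% after median centring. The subject numbers did not pair the rats (correlations of deviations -0.028 to 0.11), so the block counts say only how the fit moved. The median of the pathway list was -0.095 after median centring. The cause of these changes was not tested.

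Differences of log2 signal turned sign as follows, none past the threshold on either side. After quantile normalization Camkk2 1368753_at was -0.015, Camkk2 1375025_at -0.017, Camk1g 1377518_at -0.011, Ppp3r1 1372982_at 0.0039 and Ppp3r1 1391213_at -0.015. After median centring Camk2g 1369993_at was -0.056, Camkk2 1368753_at -0.019, Camkk2 1375025_at -0.017, Camk1g 1377518_at -0.053, Ppp3r1 1391213_at -0.061 and Calm2 1370246_at -0.040. With array weights Camkk2 1368753_at was -0.033, Ppp3cb 1379314_at 0.0082, Ppp3r1 1369152_at 0.013, Ppp3r1 1372982_at 0.0062 and Ppp3r1 1391213_at -0.0049. With the code series as a block Camk1g 1377518_at was -0.011, Ppp3ca 1373479_at 0.018 and Ppp3r1 1372982_at 0.0010. In the lower series Camk2g 1369993_at was -0.0039, Ppp3ca 1373479_at 0.033, Ppp3ca 1398506_at -0.031, Ppp3cb 1375882_at 0.048, Ppp3cb 1379314_at 0.030, Ppp3r1 1369152_at 0.061, Ppp3r1 1372982_at 0.0050 and Ppp3r1 1391213_at -0.075. In the higher series Camk2a 1368935_at was 0.010, Camk2a 1381637_at 0.29, Camk2a 1389824_at 0.18, Camk2d 1368833_at 0.47, Camk1g 1377518_at -0.33 and Calm2 1370246_at -0.038. Without aged rats 2 and 6 Camkk2 1368753_at was -0.11, Camkk2 1375025_at -0.027, Ppp3cb 1379314_at 0.040, Ppp3r1 1369152_at 0.049, Ppp3r1 1391213_at -0.0048 and Calm2 1370246_at -0.0019.

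Without any 1 rat the ranges that crossed 0 were -0.23 to 0.018 for Camk2a 1381637_at, -0.21 to 0.10 for Camk2d 1368833_at, -0.25 to 0.0039 for Camk2d 1368834_at, -0.015 to 0.071 for Camk2g 1369993_at, -0.15 to 0.011 for Camk4 1369753_at, -0.048 to 0.19 for Camkk2 1368753_at, -0.015 to 0.14 for Camkk2 1375025_at, -0.076 to 0.10 for Camk1g 1377518_at, -0.037 to 0.037 for Ppp3ca 1373479_at, -0.070 to 0.032 for Ppp3cb 1379314_at, -0.081 to 0.091 for Ppp3r1 1369152_at, -0.022 to 0.031 for Ppp3r1 1372982_at, -0.064 to 0.078 for Ppp3r1 1391213_at and -0.14 to 0.042 for Prkaa2 1369654_at. The 3 members with the largest standard error (Ppp3ca 1398506_at, 0.49, Camk2g 1381936_at, 0.39, and Camk2d 1368833_at, 0.27) limit most what could be seen.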

Other observations

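Crem and the NFAT genes were looked at as groups after their values were seen, so they are given without a test. All 6 Crem probe sets had a lower mean in aged rats, from -0.61 to -0.05 on the log2 scale, and 3 of them had an unadjusted p up to 0.05. At 1369737_at the signals were 146, 185.5 and 311 in young and 83.5, 132 and 211 in aged rats (lowest, median and highest), and at 1393550_at they were 90.3, 147 and 168 in young and 77.2, 97.3 and 121 in aged rats. The 6 were also lower after quantile normalization and after median centring, and 5 of 6 were lower in each series of sample codes and without aged rats 2 and 6. Crem yields activator and repressor forms from 1 gene, which these probe sets were not annotated to separate here.

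Of the 8 probe sets of Nfatc1, Nfatc2, Nfatc3, Nfatc4 and Nfat5, 7 had a higher mean in aged rats, with a median difference of 0.19. Over the whole array 42.3% of probe sets were lower. The probe sets of Nfatc1, Nfatc2 and Nfatc4 fell in the dimmest of the 4 classes by signal or the next. In those classes 34.2% and 33.4% of all probe sets were lower, with median differences of 0.18 and 0.08. The NFATc proteins are moved to the nucleus by calcineurin, whereas NFAT5 lacks the calcineurin-binding region. Nfat5 1372772_at had 978, 1031 and 1076 in young and 1066, 1148 and 1182 in aged rats, a difference of 0.14 (SE 0.05). The other, brighter Nfat5 probe set, 1398421_at, differed by 0.03 (SE 0.07). Nfatc1 1378389_at had 135, 166 and 196 in young and 160.5, 205 and 255 in aged rats, a difference of 0.29 (SE 0.13). None passed adjustment. The count was 6 of 8 after median centring, with none at an unadjusted p up to 0.05 there.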
